A study of Mus musculus with 11 samples.

Results

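The addition of Jagged-1 stroma to cultures that already held FICZ was examined by comparing 3 samples grown with TGFβ, IL-34, Jag1 and FICZ (TGFβ/IL-34/Jag1/FICZ) with 2 samples grown with TGFβ, IL-34 and FICZ (TGFβ/IL-34/FICZ). These were 5 of the 11 samples of the series, chosen by their treatment labels. All genes with a normalized count of at least 10 in at least 2 of the 11 samples entered the comparison, 13095 of 21860. The genes are described by pathway, and genes of the stromal line are kept apart. The study profiled, by bulk RNA sequencing, CD11b-low EpCAM+ cells sorted from cultures of mouse bone marrow monocytes, to ask how Notch signals combine with other signals of the skin. In all 5 samples GM-CSF (20 ng/ml), TGFβ (5 ng/ml) and IL-34 (8 µg/ml) were present and cells were harvested on day 6. FICZ was called an agonist of the aryl hydrocarbon receptor (Ahr) by the study, while the deposited design text calls it an antagonist. Jag1 was supplied by OP9-Jag1 cells, a mouse bone marrow stromal line made to carry the ligand, so Jag1, the stroma itself and the smaller number of monocytes that the protocol seeds onto stroma cannot be told apart here. The cell type label names an OP9 co-culture for every sample, but the collagen genes Col1a1 and Col1a2 stood at 0 in the FICZ samples without Jag1, and the sample codes separate monocyte from Jag1 cultures.

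Jagged-1 is a membrane ligand of the Notch receptors. Binding leads to cleavage of the receptor, whose intracellular part joins the DNA-binding protein RBPJ in the nucleus and switches on targets such as the Hes and Hey repressors and Nrarp. Ahr is a receptor for small aromatic molecules that, once bound, induces cytochrome P450 genes. The study calls the role of its signaling in Langerhans cells unclear, though they express it. These cells live in the epidermis and take up antigen there. TGFβ and IL-34 are signals these cells depend on.

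The 5 libraries held an estimated 20.8 to 24.3 M reads, and 1 read was worth 0.897 to 1.14 normalized counts, which puts the limit left by a count of 0, 3 reads, at 2.69 to 3.43 normalized counts (counting error only). Replicate 1 of TGFβ/IL-34/FICZ stood apart from all other libraries. Its genes in the shortest tertile by transcript length lay a median 0.50 above the mean of all libraries on the log2 scale and those in the longest tertile 0.52 below, against −0.087 to −0.00078 and −0.0084 to 0.11 in the other 10 libraries. Its transcripts of cytosolic ribosomal proteins summed to 3571460 normalized counts, against 1079120 to 1705270 elsewhere. With only 2 samples in that group, calls below are given with what became of them when this library was left out, or when each library was centered by transcript length.

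Ptprc, the pan-leukocyte CD45 gene, stood at 3297 and 6056 in the FICZ samples and at 5920, 6334 and 5669 in the Jag1/FICZ samples. Epcam, used in the sort, was at 5943 and 3952 and at 7594, 6086 and 9133, while Cd207, which encodes the Langerhans cell lectin langerin, was near the floor in 4 of the 5 samples (6.90 and 6.22 against 8.39, 6.29 and 132). Markers of adipocytes, to which OP9 cells can turn, summed to 12.1 and 1.79 in the FICZ samples and 0.91 to 9.08 in the Jag1/FICZ samples over 6 genes, with Cidec and Lep at 0 throughout. Of 5 keratinocyte markers all but Krt10 were at 0. The 7 myeloid markers were detected in every sample and summed to 50255 and 46321 without Jag1 and to 31273 to 41110 with it, and the 4 markers of plasmacytoid dendritic cells to 180 and 635 against 796 to 903. Sums of the B cell, T cell, erythroid and endothelial lists were at 39.6 to 56.4, 91.2 to 185, 29.2 to 199 and 2762 to 3143 in the FICZ samples and at 65.9 to 77.1, 60.7 to 170, 86.7 to 186 and 3536 to 4210 in the Jag1/FICZ samples. Their part in the results was not tested.

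Of the 13095 genes, 264 had an adjusted p under 0.05 (limma with Benjamini-Hochberg adjustment), which is 2.02% of those tested, with 185 higher (1.41%) and 79 lower (0.603%) with Jag1. The log2 fold change was above 0 in 6956 of the 13095 and below 0 in 6139. The counts given for the lists below stand against these shares. In all 264 the groups did not overlap, as also held for 19.6% of all tested genes in the higher direction and 16.2% in the lower. Their direction was therefore the same within both pairs of samples that share an experiment code (replicates 1 and replicates 2). That was fixed by the lack of overlap and is no separate support. When replicate 1 of TGFβ/IL-34/FICZ was left out, 136 of the 264 calls remained (96 higher, 40 lower), and after centering by length 230 remained. Without each Jag1/FICZ replicate in turn 46 remained throughout, 33 higher and 13 lower, and the same 46 also passed in both of those settings. Without replicate 2 of TGFβ/IL-34/FICZ, where replicate 1 alone stood for its group, 5820 genes passed. With replicate number as a block 187 genes passed, and when the fit held only these 2 groups or weighted each array none did. In those 2 fits 264 and 247 of the called genes had an unadjusted p below 0.05. These genes were chosen by their p in the same data, and without overlap their signs could not change, so neither adds support. Nothing in the labels says that replicates came from separate animals, so p-values measure only the spread between the samples of the fit, which held all 11.

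Transcripts of stromal matrix appeared with Jag1. The stroma list of 37 genes (collagens, proteoglycans, collagen crosslinkers and mesenchymal surface and transcription factor genes) had 28 members tested, all 28 above 0, with a median log2 fold change of 3.94 against 0.047 for all genes. Of these, 11 passed the test, all higher, and 8 of them still did without replicate 1 of TGFβ/IL-34/FICZ. Col1a1 (ENSMUSG00000001506, chromosome 11, 94827050 to 94843868, GRCm39), the α1 chain of type I collagen, was at 0 in both FICZ samples and at 222, 625 and 1345 normalized counts in the Jag1/FICZ samples, at least 239-fold higher when a group at 0 is set to 3 reads per library (adjusted p = 0.0020). The same pattern, 0 in both FICZ samples, was found for its partner chain Col1a2 (133, 331 and 822, adjusted p = 0.0014), the proteoglycan Bgn (109, 317 and 1393, adjusted p = 0.0077), the matrix glycoprotein Fbln2 (116, 276 and 544, adjusted p = 9.9e-04), the collagen-binding Sparc (32.7, 112 and 333, adjusted p = 0.0083) and the crosslinking oxidase Lox (39.1, 120 and 331, adjusted p = 0.0053). In each, replicate 1 was lowest and replicate 3 highest.

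Further matrix-related genes outside the list were also at or near 0 without Jag1. Col2a1, a cartilage collagen chain, was at 0 in both FICZ samples and at 105, 239 and 379 with Jag1 (log2 fold change 7.74 ± 0.80, SE, adjusted p = 0.0025). Cald1, an actin-binding protein of contractile cells, was at 0 and 0.67 against 15.9, 221 and 339, and Aebp1, a matrix-associated carboxypeptidase-like protein, at 0 and 0 against 13.3, 112 and 181. Col16a1 and Ccn2, the latter a matrix-cell adhesion protein induced by TGFβ, were at 0 without Jag1 and at 6.98 to 119 and 8.36 to 100 with it. Cald1, Aebp1, Col16a1 and Ccn2 lost their call without replicate 1 of TGFβ/IL-34/FICZ or without replicate 2 or 3 of Jag1/FICZ (adjusted p = 0.056 to 0.165), and Col16a1 and Ccn2 also with replicate as a block (adjusted p = 0.061 and 0.089). In all, 11 of the 174 higher genes outside the list were at or under 3 reads in each of the 4 libraries without stroma, as were 92 tested genes outside the list. The remaining 163 were detected there, and 120 had a mean of at least 50 in both groups.

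The stroma list was not free of genes that the sorted cells hold without stroma. Thy1, a surface glycoprotein of fibroblasts and of some blood cells, stood at 12178 and 3578 in the FICZ samples and at 16084, 13020 and 12188 with Jag1 (adjusted p = 0.19). Igfbp7, a secreted binding protein, was at 308 and 161 against 470, 490 and 504 (adjusted p = 0.21). Nid1, a basement membrane linker, was at 45.3 and 188 against 677, 924 and 678 and passed (adjusted p = 0.025), but not without replicate 1 of TGFβ/IL-34/FICZ or any replicate of Jag1/FICZ (adjusted p = 0.058 to 0.10). Leaving out these 3 genes, which were picked after their values were seen, the remaining 34 summed to 346 and 1110 normalized counts without Jag1 and to 1827, 3523 and 7905 with it. Of the 8 defining stroma markers, 6 and 7 were at or under 3 reads in the FICZ samples and 3, 2 and 1 in the Jag1/FICZ samples, and their sums were 45.0 and 25.2 against 533, 1384 and 3851. Dcn, the proteoglycan decorin, was at 0 in all 5 samples. How much of any other higher gene came from OP9 cells was not tested. In these bulk samples, fewer cells of a type and less RNA per cell cannot be told apart.

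**Figure D1:**
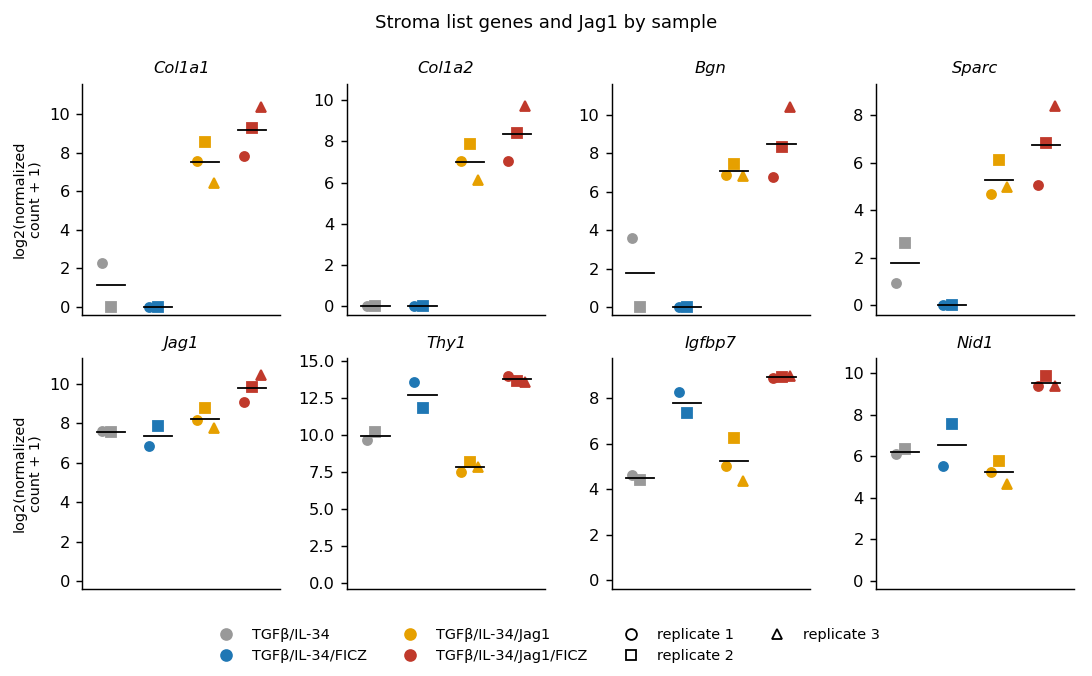
Log2(normalized count + 1) of 8 genes (y axis) in each sample of 4 groups (color), with the replicate as marker shape and the mean of the log2 values as a black line. Col1a1, Col1a2, Bgn and Sparc sit at 0 in both FICZ samples and between 32.7 and 1393 normalized counts in the Jag1/FICZ samples, while Jag1, Thy1, Igfbp7 and Nid1 are present without stroma.

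Among 32 tested genes of the Notch pathway, only the ligand Jag1 itself passed (2.02% of all genes did), and the median log2 fold change was 0.24, or 0.012 without replicate 1 of TGFβ/IL-34/FICZ. Jag1 (ENSMUSG00000027276, chromosome 2, 136923373 to 136958693, minus strand) was at 113 and 226 normalized counts in the FICZ samples and at 542, 891 and 1397 in the Jag1/FICZ samples. The groups did not overlap, and the log2 fold change was 2.45 ± 0.44 (SE, adjusted p = 0.026). The call did not hold without replicate 1 of TGFβ/IL-34/FICZ or replicate 2 or 3 of Jag1/FICZ (adjusted p = 0.094 to 0.105). The added OP9-Jag1 cells were made to carry this ligand, and how much of its transcript came from them was not tested. Jag2, the other Jagged ligand, was at 275 and 87.4 against 847, 868 and 404 (adjusted p = 0.079). The receptor Notch2 was at 1354 and 4579 against 4128, 3938 and 3569, with overlapping groups, and its difference changed sign without replicate 1 of TGFβ/IL-34/FICZ.

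None of the 8 tested Notch targets passed, nor any of the 11 processing and glycosylation genes or the 5 nuclear complex genes. Nrarp, a feedback inhibitor of Notch and a direct target, was at 82.9 and 62.6 in the FICZ samples and at 159, 184 and 117 with Jag1 (log2 fold change 1.05 ± 0.36, SE, adjusted p = 0.14). Its groups did not overlap, but the difference missed the threshold. Il2ra, the α chain of the IL-2 receptor, was at 2136 and 4514 against 5998, 6736 and 7700 (adjusted p = 0.10). The repressors Hes5 and Hey1 stayed between 2.30 and 11.96 normalized counts in all 5 samples, and Hes1 was below the filter.

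Promoter sequences were searched for the RBPJ core, TGGGAA, on both strands in windows of 250 bases before to 50 after a gene's start (RefSeq, GRCm38.p6). Among genes that have a window, the core was found in 20 of 124 higher genes outside the stroma list (16.1%). It was found in 17 of 64 lower genes (26.6%) and 2391 of 10403 of all tested genes (23.0%). Counted by window and not by gene, 25.6% of all RefSeq windows held it. These are descriptions of letters in a short window and say nothing about binding. The 250 bases before the start are printed for Cald1 (1 of its 2 windows) and Aebp1. These are the named genes outside the stroma list with the largest increases that have a window, and neither printed stretch holds the core. Those of Il1a and Ccl17, genes that fell, are also printed, and each holds it once on the opposite strand (capitals).
Cald1, chr6:34598254-34598503, plus strand: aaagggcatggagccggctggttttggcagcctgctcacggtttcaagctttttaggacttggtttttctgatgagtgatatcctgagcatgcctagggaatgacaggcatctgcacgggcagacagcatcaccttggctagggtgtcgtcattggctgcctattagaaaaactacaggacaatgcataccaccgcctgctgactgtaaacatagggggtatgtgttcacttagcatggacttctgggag
Aebp1, chr11:5861616-5861865, plus strand: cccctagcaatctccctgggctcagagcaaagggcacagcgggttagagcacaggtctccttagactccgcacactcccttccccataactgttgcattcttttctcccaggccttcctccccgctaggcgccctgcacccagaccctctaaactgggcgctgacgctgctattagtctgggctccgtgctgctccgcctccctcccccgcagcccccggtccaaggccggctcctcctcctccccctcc
Il1a, chr2:129309973-129310222, minus strand: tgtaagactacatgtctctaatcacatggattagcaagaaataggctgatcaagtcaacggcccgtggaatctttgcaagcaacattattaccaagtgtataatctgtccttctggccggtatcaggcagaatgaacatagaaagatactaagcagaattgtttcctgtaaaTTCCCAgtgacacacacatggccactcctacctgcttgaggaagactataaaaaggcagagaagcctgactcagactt
Ccl17, chr8:94810203-94810452, plus strand: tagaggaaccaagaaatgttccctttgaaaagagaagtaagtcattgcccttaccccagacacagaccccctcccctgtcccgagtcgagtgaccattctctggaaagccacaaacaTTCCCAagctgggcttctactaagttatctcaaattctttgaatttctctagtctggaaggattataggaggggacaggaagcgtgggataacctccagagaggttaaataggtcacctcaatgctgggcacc

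The higher genes outside the stroma list included secreted factors and receptors of myeloid cells. Ccl24 (ENSMUSG00000004814, chromosome 5, 135598668 to 135601905), a chemokine that attracts eosinophils, was at 10.2 and 6.07 normalized counts in the FICZ samples and at 716, 341 and 318 in the Jag1/FICZ samples. This was a 56.5-fold difference of the means with no overlap (log2 fold change 5.59 ± 0.45, SE, adjusted p = 9.9e-04). Cd300e (chromosome 11, 114942743 to 114957500), an activating receptor of monocytes, was at 0 and 0 against 18.6, 37.6 and 171, at least 24.7-fold higher (adjusted p = 0.0077). Htra3, a secreted serine protease, was at 90.5 and 42.0 against 401, 391 and 730 (log2 fold change 2.95 ± 0.37, SE, adjusted p = 0.0077). These 3 passed in every leave-out and after length centering.

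Mical2, Arnt2, Hopx and Hand1 also rose. Mical2 (ENSMUSG00000038244, chromosome 7, 111825003 to 112012313), an enzyme that oxidizes actin and thereby takes filaments apart, was at 162 and 282 in the FICZ samples and at 1880, 1752 and 2303 with Jag1. The spread within each group was small against this 8.89-fold difference of the means (log2 fold change 3.19 ± 0.25, SE, adjusted p = 9.9e-04), and the call held in every leave-out. Arnt2, a partner of basic helix-loop-helix transcription factors related to the partner of Ahr, was at 0 and 0.80 against 47.7, 48.0 and 66.9 (adjusted p = 0.0077) and likewise held. Hopx, a homeodomain protein without DNA-binding activity, was at 1016 and 202 against 5874, 3918 and 4246 (log2 fold change 3.34 ± 0.62, SE, adjusted p = 0.028), but its call was lost without any Jag1/FICZ replicate (adjusted p = 0.096 to 0.10). Hand1, a basic helix-loop-helix factor known from the heart and placenta, was at 11.9 and 3.70 against 318, 144 and 144 (adjusted p = 0.014), and lost its call without replicate 1 or 2 of Jag1/FICZ (adjusted p = 0.066 and 0.056).

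A further 6 named genes rose. Lipg, an endothelial-type lipase, was at 35.5 and 85.1 against 597, 620 and 352 (log2 fold change 3.18 ± 0.49, SE), and Sod3, an extracellular superoxide dismutase, at 169 and 146 against 1182, 1429 and 947 (log2 fold change 2.89 ± 0.40, SE). Ngp, a protein of secondary neutrophil granules, was at 253 and 488 against 2607, 3972 and 2405. Gzmb, the cytotoxic granule protease granzyme B, was at 0 and 4.44 against 160, 280 and 51.5. Ocstamp, a membrane protein of multinucleating osteoclasts and macrophages, was at 0 and 5.38 against 58.6, 52.2 and 71.1, and Ppp1r3g, a glycogen-targeting subunit of protein phosphatase 1, at 0 and 3.48 against 66.9, 59.1 and 55.2. For none of the 6 did the groups overlap, and each lost its call in at least 1 leave-out. Sod3 did so without replicate 2 of Jag1/FICZ alone (adjusted p = 0.051), Lipg without replicate 1 of TGFβ/IL-34/FICZ or replicate 1 or 2 of Jag1/FICZ (adjusted p = 0.051 to 0.078), Ocstamp without any Jag1/FICZ replicate (adjusted p = 0.068 to 0.074), and Ngp, Gzmb and Ppp1r3g without any of these 4 libraries (adjusted p = 0.059 to 0.14). That of Gzmb was also lost with replicate as a block (adjusted p = 0.078).

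Markers of other blood cells stood beside these. The 5 natural killer cell markers summed to 26.8 and 18.9 normalized counts in the FICZ samples and to 111, 102 and 62.7 with Jag1, mostly from Gzma and Nkg7, while Prf1 was at 0 to 2.79 and Ncr1 at 0 to 3.13. Among 17 tested genes of neutrophil granules and granulocyte progenitors, only Ngp passed, 15 were above 0 and the median log2 fold change was 0.82, which went to 1.35 without replicate 1 of TGFβ/IL-34/FICZ and to 0.38 without replicate 2. Of 10 tested mast cell and basophil genes, Mcpt8, a basophil protease, passed (72.7 and 87.3 against 479, 253 and 228, adjusted p = 0.030), though not without replicate 1 of TGFβ/IL-34/FICZ, any Jag1/FICZ replicate (adjusted p = 0.069 to 0.10) or with the block (adjusted p = 0.059). The part of such cells in the higher genes was not tested.

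**Figure D2:**
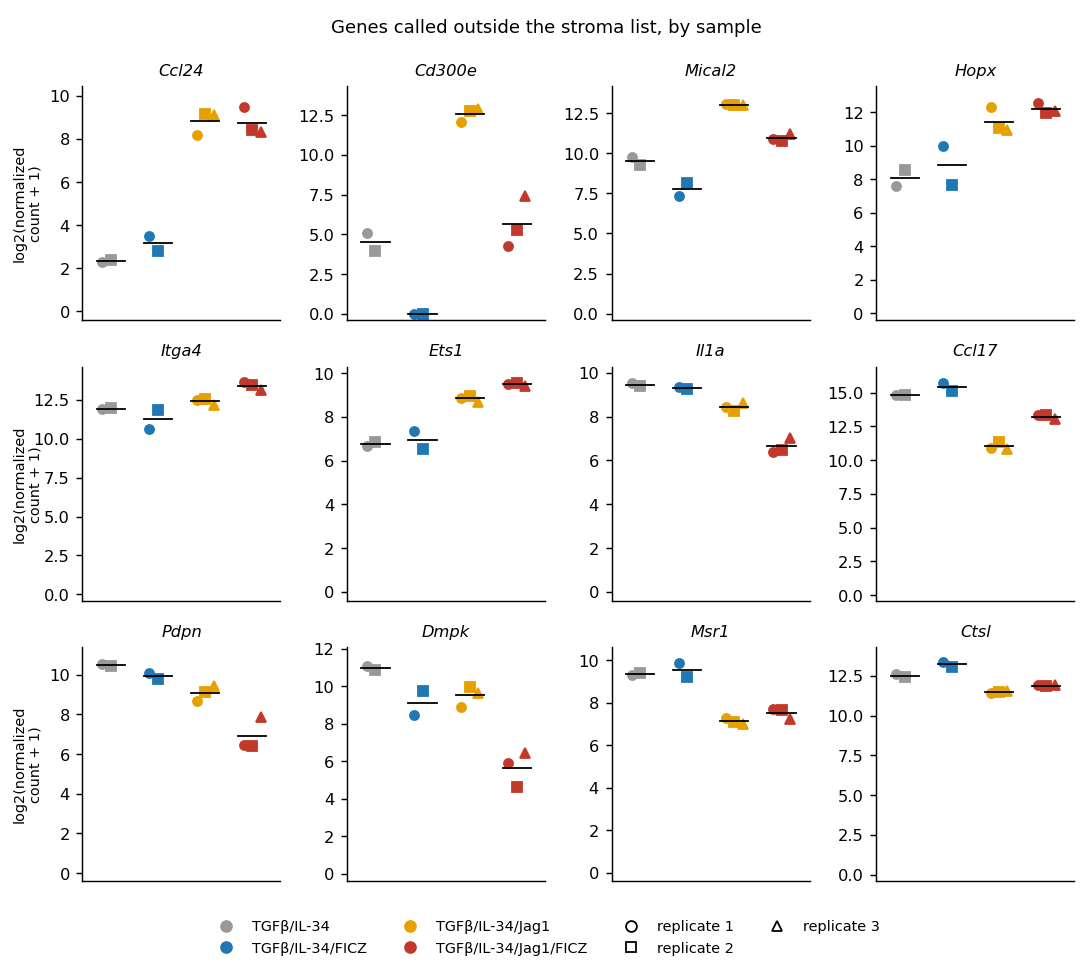
Log2(normalized count + 1) of 12 called genes (y axis) in each sample of 4 groups (color), with the replicate as marker shape and the mean of the log2 values as a black line. In the TGFβ/IL-34/Jag1/FICZ samples the first 6 genes lie above, and the last 6 below, both TGFβ/IL-34/FICZ samples.

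Genes that fell with Jag1 included the chemokine gene Ccl17 and the cytokine gene Il1a. Ccl17 (ENSMUSG00000031780, chromosome 8, 95534358 to 95538664), a chemokine of dendritic cells that attracts T cells through CCR4, was at 53747 and 36193 normalized counts in the FICZ samples and at 10265, 10248 and 8377 with Jag1, 4.67-fold lower by the means (log2 fold change −2.20 ± 0.22, SE, adjusted p = 0.0024). Il1a (ENSMUSG00000027399, chromosome 2, 129140291 to 129152098, minus strand), the cytokine interleukin-1α, was at 648 and 605 against 82.9, 88.9 and 130, 6.23-fold lower (log2 fold change −2.65 ± 0.25, SE, adjusted p = 0.0018). Both pairs of values were far apart relative to the spread, and both calls held in every leave-out. Of the 22 tested inflammatory cytokine and chemokine genes, Ccl24 and Osm rose and Il1a fell, and of 19 tested dendritic cell maturation genes only Ccl17 passed. Neither list as a whole was lower. In the first, 13 genes were above 0 and 9 below, with a median log2 fold change of 0.42. In the second, 11 were above 0 and 8 below, with a median of 0.18. Osm, the cytokine oncostatin M, was at 1275 and 528 against 2370, 2082 and 2456 (adjusted p = 0.0496), and not called without any Jag1/FICZ replicate (adjusted p = 0.14 to 0.15) or with the block (adjusted p = 0.074).

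Single receptor genes of macrophages were lower. Msr1 (chromosome 8, 40034726 to 40095714), the class A scavenger receptor, was at 934 and 595 in the FICZ samples and at 207, 201 and 150 with Jag1 (log2 fold change −2.01 ± 0.26, SE, adjusted p = 0.0077), and its call held in every leave-out. Stab1, the scavenger receptor stabilin-1, was at 919 and 676 against 114, 166 and 68.0 (adjusted p = 0.014), Fcgr1, the high-affinity IgG receptor, at 64.2 and 122 against 6.17, 3.95 and 18.1 (adjusted p = 0.029), and Trem2, a lipid-sensing receptor, at 2020 and 267 against 105, 28.7 and 91.3 (adjusted p = 0.049). The Trem2 value of replicate 1 of TGFβ/IL-34/FICZ was far above that of replicate 2. Stab1 lost its call without that library or replicate 1 of Jag1/FICZ (adjusted p = 0.058 and 0.052), Fcgr1 without that library or replicate 1 or 2 of Jag1/FICZ (adjusted p = 0.056 to 0.11), and Trem2 without that library or any Jag1/FICZ replicate (adjusted p = 0.098 to 0.17). In the macrophage list, 2 of 18 tested genes fell (Msr1 and Fcgr1) and 1 rose, Mertk, a receptor for apoptotic cells (11.4 and 26.7 against 85.7, 83.7 and 95.2, adjusted p = 0.017, and 0.066 to 0.070 without a Jag1/FICZ replicate). The median of the list was −0.12, or −0.21 and −0.32 without replicate 1 and 2 of TGFβ/IL-34/FICZ. Among 16 monocyte genes Cd300e alone passed, and the median was 0.10. Trem2 was the only one of 13 genes of TREM and Tyrobp signaling to pass.

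Pdpn, Dmpk and Fam20c were among the other large decreases. Pdpn (ENSMUSG00000028583, chromosome 4, 142990871 to 143026143, minus strand), podoplanin, a mucin-like ligand of CLEC-2, was at 1096 and 880 against 87.1, 84.1 and 230, 7.39-fold lower (log2 fold change −3.03 ± 0.41, SE, adjusted p = 0.0077). Dmpk, the kinase named for myotonic dystrophy, was at 358 and 857 against 57.8, 23.7 and 86.6 (log2 fold change −3.46 ± 0.54, SE, adjusted p = 0.014). Fam20c, a kinase of secreted proteins, was at 871 and 608 against 148, 101 and 96.2 (log2 fold change −2.68 ± 0.38, SE, adjusted p = 0.0090). All 3 held in every leave-out. Qpct, which closes N-terminal glutamine into pyroglutamate, was at 837 and 2476 against 184, 194 and 246 (adjusted p = 0.017), and Blnk, an adaptor of B cell receptor signaling, at 121 and 105 against 12.3, 30.3 and 9.76 (adjusted p = 0.027). Lyrm7, a factor of respiratory complex III assembly, Kazald1 and the unannotated Gm10401 were also among the largest decreases, the last at 204 and 14.9 without Jag1 and 0 in all 3 Jag1/FICZ samples. These 5 genes lost their calls in 3 or 4 of the 5 leave-outs (adjusted p = 0.051 to 0.16). Blnk, Kazald1 and Gm10401 did so without replicate 1 of TGFβ/IL-34/FICZ, and Kazald1 and Gm10401 with the block (adjusted p = 0.082 and 0.067).

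Of 23 tested interferon-stimulated genes 1 fell, where 0.603% of all tested genes did. It was Mx2, an antiviral GTPase (138 and 118 against 14.4, 16.6 and 23.9, adjusted p = 0.017). Outside that list Oas1g, an oligoadenylate synthetase gene of a family of close copies whose reads could be split, was at 80.7 and 67.8 against 3.61, 7.16 and 15.7 (adjusted p = 0.041). Mx2 was not called without replicate 1 of TGFβ/IL-34/FICZ or replicate 1 or 2 of Jag1/FICZ (adjusted p = 0.065 to 0.079), nor Oas1g without replicate 1 of TGFβ/IL-34/FICZ or any Jag1/FICZ replicate (adjusted p = 0.051 to 0.14) or after length centering (adjusted p = 0.053). The median of the list depended on the FICZ library, at −0.40 with both, −0.89 without replicate 1 and 0.48 without replicate 2.

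Of 10 hypoxia response genes 5 rose with Jag1, where 1.41% of all tested genes did. In the 10, 8 were above 0 and 2 below, against 6956 and 6139 of all 13095. Their median log2 fold change was 1.096, or 1.09 without replicate 1 of TGFβ/IL-34/FICZ. Egln3 (chromosome 12, 54225767 to 54250673), a prolyl hydroxylase that marks HIF-α for destruction and is itself induced by hypoxia, was at 300 and 371 in the FICZ samples and at 2265, 1533 and 2472 in the Jag1/FICZ samples (log2 fold change 2.61 ± 0.39, SE, adjusted p = 0.012). Vegfa (chromosome 17, 46327919 to 46343309), the vascular growth factor, was at 3702 and 2991 against 12326, 9512 and 9546 (log2 fold change 1.64 ± 0.31, SE, adjusted p = 0.029). Ndrg1, a stress-responsive gene, was at 4309 and 3263 against 8566, 8523 and 7763, Mxi1, an antagonist of Myc, at 1655 and 1456 against 3278, 3140 and 3385, and the lactate exporter Slc16a3 at 1634 and 1900 against 4082, 3134 and 4381. In all 5 the groups were apart, but each call was lost without 1 or more Jag1/FICZ replicates (adjusted p = 0.051 to 0.13), and those of Vegfa and Slc16a3 also without replicate 1 of TGFβ/IL-34/FICZ. Slc16a3 was also lost after length centering (adjusted p = 0.17) and with the block (adjusted p = 0.061). Of 14 glycolysis genes 11 were above 0 and none passed, with a median of 0.28 that moved to 0.50 and 0.10 when replicate 1 or replicate 2 of TGFβ/IL-34/FICZ was left out. Pfkfb3, which makes the activator of phosphofructokinase and was named after its values were seen, was at 2431 and 4074 against 11916, 11398 and 9998 (adjusted p = 0.0061) and held in every leave-out.

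In the lists of lysosomal and oxidative stress genes all the calls were lower, while Sod3, which is outside these lists, rose as given above. Of 30 tested lysosomal genes 27 were below 0 and 3 fell, with a median of −0.45 (−0.29 without replicate 1 of TGFβ/IL-34/FICZ and −0.62 without replicate 2). Ctsl (chromosome 13, 64507151 to 64518704), the protease cathepsin L, was at 10681 and 8534 normalized counts against 3826, 3641 and 3896, 2.54-fold lower (log2 fold change −1.33 ± 0.15, SE, adjusted p = 0.0044), in every leave-out. Ctsh, cathepsin H, was at 7551 and 7637 against 3719, 4381 and 4241 (adjusted p = 0.031). Its call was lost without any Jag1/FICZ replicate (adjusted p = 0.11 to 0.13), after length centering (adjusted p = 0.060) and with the block (adjusted p = 0.0503). Of 19 oxidative stress genes 2 fell (0.603% of all genes did), both known targets of the factor Nrf2, 14 were below 0 and 5 above. The median was −0.47, but −0.10 without replicate 1 of TGFβ/IL-34/FICZ and −1.14 without replicate 2. Gclm, the regulatory subunit of the enzyme that begins glutathione synthesis, was at 2456 and 2642 against 880, 1025 and 890 (log2 fold change −1.45 ± 0.21, SE, adjusted p = 0.0096), and Prdx1, a peroxidase, at 10572 and 7638 against 3711, 3492 and 3974 (log2 fold change −1.27 ± 0.17, SE, adjusted p = 0.0077). Both held in every leave-out.

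For the short transcripts of respiration and translation the comparison rested on replicate 1 of TGFβ/IL-34/FICZ. Of 78 oxidative phosphorylation genes 75 were below 0, with a median of −0.78, which went to −0.19 without that library and to −1.41 without replicate 2. Only 3 passed, Atp5mpl, Cox7b and Ndufa1, and of these Cox7b alone did so without replicate 1. Atp5mpl and Ndufa1 lost their calls without that library or any Jag1/FICZ replicate (adjusted p = 0.077 to 0.165) and with the block (adjusted p = 0.068 and 0.076). Ndufa1 also lost its call after length centering (adjusted p = 0.13). Cox7b, a subunit of cytochrome c oxidase, was at 2252 and 1709 against 1074, 1071 and 1022 (adjusted p = 0.027, but 0.098 to 0.11 without any Jag1/FICZ replicate and 0.061 with the block). None of the 77 cytosolic ribosomal protein genes passed, and their median of −0.71 went to 0.050 without replicate 1. Transcript length went with the calls in general, since 46 of the lower genes were in the shortest tertile of tested genes and 13 in the longest, against 44 and 82 of the higher genes.

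**Figure D3:**
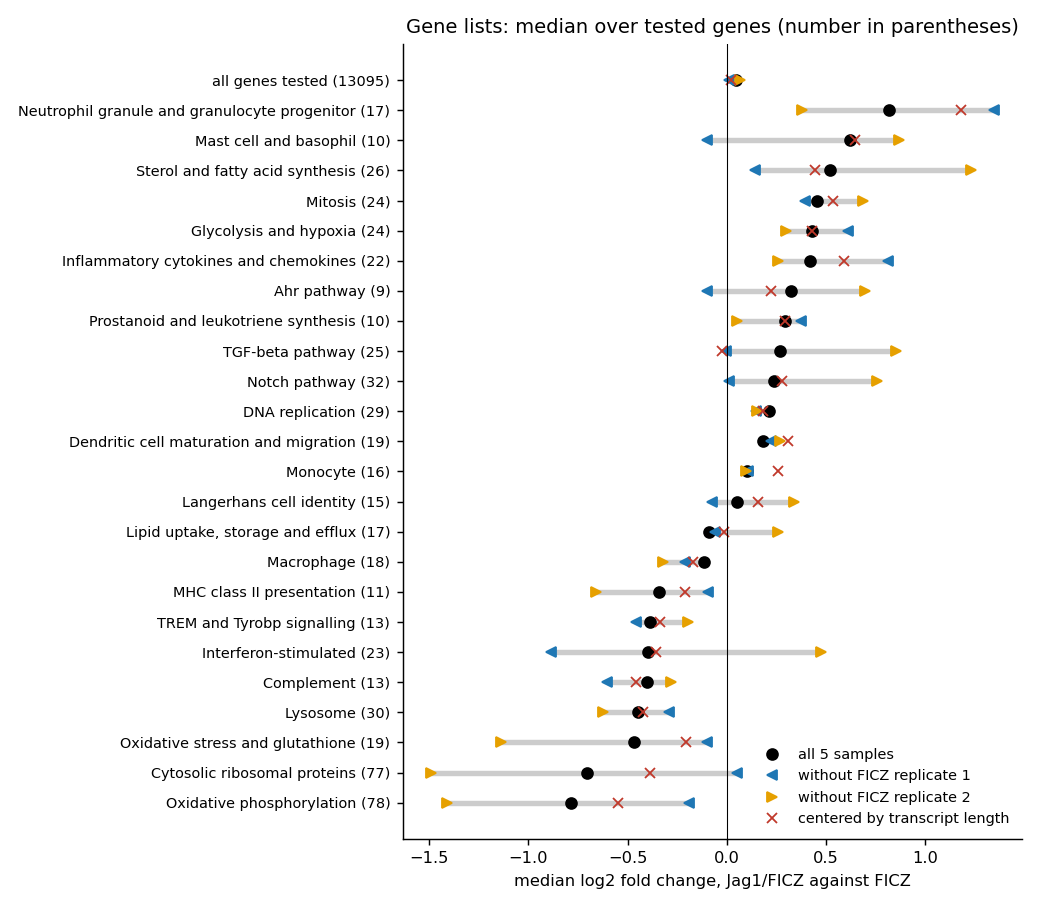
Median log2 fold change of TGFβ/IL-34/Jag1/FICZ over TGFβ/IL-34/FICZ (x axis) for each gene list (y axis, number of tested genes in parentheses), with all 5 samples, without each FICZ sample in turn and after centering by transcript length. Gray bars join the lowest and highest of the first 3, and are widest for ribosomal proteins (−1.49 to 0.050), interferon-stimulated genes (−0.89 to 0.48) and oxidative phosphorylation (−1.41 to −0.19).

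In the TGFβ pathway 4 of 25 tested genes passed (2.02% of all genes did), 2 in each direction. Lrrc32, which displays latent TGFβ on the cell surface, rose (33.8 and 40.8 against 109, 80.1 and 168, adjusted p = 0.048), as did Ccn2, given above among the genes at 0 without Jag1. Ltbp3, which binds latent TGFβ to the matrix, fell (1362 and 824 against 384, 378 and 433, adjusted p = 0.027), and so did Smad6, an inhibitory Smad (728 and 579 against 192, 193 and 299, adjusted p = 0.023). None of the 4 held without replicate 1 of TGFβ/IL-34/FICZ, nor without replicate 2 of Jag1/FICZ, and each was lost without replicate 1 or 3 of Jag1/FICZ as well (adjusted p = 0.069 to 0.165). With the block Lrrc32 was not called either (adjusted p = 0.090).

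Of 15 tested genes of Langerhans cell identity 1 passed, Runx3, a transcription factor that Langerhans cells need (4998 and 7486 against 12165, 10853 and 10975, log2 fold change 0.89 ± 0.19, SE, adjusted p = 0.044), and it was lost without replicate 1 of TGFβ/IL-34/FICZ, any Jag1/FICZ replicate (adjusted p = 0.052 to 0.16) or with the block (adjusted p = 0.089). The rise of Cd207 rested on replicate 3 of Jag1/FICZ (log2 fold change 1.47 ± 0.98, SE, adjusted p = 0.36), and Epcam did not pass (0.63 ± 0.29, SE, adjusted p = 0.22). No gene of MHC class II presentation passed among 11, with H2-Ab1, a β chain of the class II molecule, at 163865 and 116058 against 73968, 73804 and 108347 (adjusted p = 0.19).

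No gene of the Ahr pathway passed among 9 tested. Cyp1a1, the cytochrome most closely tied to Ahr, was at 2079 and 1933 in the FICZ samples and at 644, 671 and 604 with Jag1, without overlap (log2 fold change −1.65 ± 0.39, SE, adjusted p = 0.065). Cyp1b1, a related cytochrome, was at 3780 and 7391 against 2868, 2996 and 2384 (adjusted p = 0.21). Nor did any of 29 DNA replication, 24 mitosis, 26 sterol and fatty acid synthesis or 17 lipid handling genes pass. In mitosis, 20 of the 24 were higher without overlap, where 19.6% of all genes were, and Mki67, a marker of cycling cells, was at 1308 and 2116 against 2979, 2802 and 3049 (adjusted p = 0.21). In the complement list Cfp, properdin, fell (23056 and 16924 against 4135, 4801 and 7038, adjusted p = 0.037, but 0.073 to 0.14 without replicate 1 of TGFβ/IL-34/FICZ or any Jag1/FICZ replicate and 0.071 after length centering). In prostanoid synthesis Ptgis, prostacyclin synthase, rose (10.6 and 3.16 against 96.3, 41.5 and 310, adjusted p = 0.038, but 0.058 to 0.11 without replicate 1 of TGFβ/IL-34/FICZ or replicate 1 or 3 of Jag1/FICZ).

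The same stroma was also added without FICZ, in 3 samples of TGFβ/IL-34/Jag1, to be set against 2 of TGFβ/IL-34. None of these is in the groups compared above. The fit took its spread from all 11 samples, however, so they enter the SEs and p-values above, and the 2 comparisons are not independent. There 864 genes passed (6.6% of those tested, 2.64% higher and 3.96% lower). Of the 174 genes that were higher outside the stroma list with FICZ, 65 were called higher without it, 4 lower and 105 not called, and 144 had the same sign. Of the 79 lower genes 31 were called lower without FICZ, none higher, and 72 had the same sign. The log2 fold change of Mical2 was 3.53 without FICZ and 3.19 with it, that of Ccl24 6.47 and 5.59, that of Msr1 −2.22 and −2.01 and that of Gclm −1.40 and −1.45 (interaction adjusted p = 0.43 to 0.92). The difference between the effects passed in 182 genes (1.39%, 1.17% with a higher log2 fold change in the presence of FICZ and 0.221% with a lower one), of which 19 were among the 174 and 7 among the 79. The 174 and the 79 were chosen by the effect with FICZ, which is itself a term of this difference. Their counts are therefore no separate support.

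Among the named genes that passed this test, Lipg had the largest difference. It was at 9.54 and 17.0 normalized counts in TGFβ/IL-34 and at 3.40, 2.07 and 2.93 in TGFβ/IL-34/Jag1, about the floor of 3 reads there. Its log2 fold change was −1.87 without FICZ, which was not called (limma, adjusted p = 0.051), and 3.18 with it (interaction adjusted p = 0.013). Sod3 was at 71.8 and 84.4 against 42.1, 127 and 72.5 without FICZ (log2 fold change −0.092, against 2.89 with FICZ, interaction adjusted p = 0.043). Fam20c fell in both settings but further without FICZ, where it was at 401 and 363 against 7.44, 12.6 and 5.49 (log2 fold change −5.40 against −2.68, interaction adjusted p = 0.043). Ccl17 showed the same order, at 28755 and 29265 against 1882, 2643 and 1853 without FICZ (log2 fold change −3.79 against −2.20, interaction adjusted p = 0.043). Arnt2 did not pass this test (interaction adjusted p = 0.063). Its levels without FICZ, 0 and 0 against 1.01, 0 and 1.73, were at or under the floor of 3 reads in all samples.

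**Figure D4:**
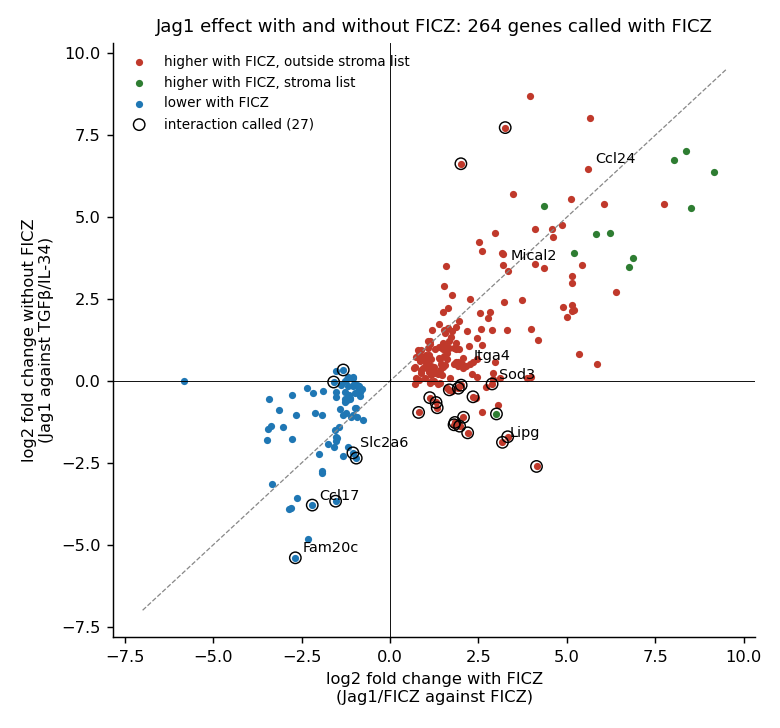
Log2 fold change with Jag1 in the absence of FICZ (y axis) against that in its presence (x axis) for the 264 genes called with FICZ, with the dashed line marking equal values and open circles the 27 genes whose difference passed the interaction test. Ccl17, Fam20c and Slc2a6 lie below the line at negative values in both, while Lipg lies below 0 without FICZ.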

How the data were processed

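RNA of sorted CD11b-low EpCAM+ cells was sequenced in 11 samples. Per the methods, the authors quantified transcripts with salmon, imported them with tximport and normalized gene counts with DESeq2 (GRCm39), and the deposited unit is this normalized count, a signal that is not a raw count. Whole reads could be recovered in only 51.9 to 57.2% of low values of the 5 samples (97.9 to 99.0% in 1008 genes with a single transcript of at least 2000 bases, tolerance 0.1 read), so no count model was run. Values were log2-transformed with a pseudocount of 1, and genes with at least 10 in at least 2 of 11 libraries were fitted with limma 3.58.1 in R 4.3.3 (trended empirical Bayes, 1 mean per group, all 11 samples, no covariate, two-sided, Benjamini-Hochberg adjustment over 13095 genes, threshold 0.05). Every fold change is taken on log2(value + 1), which shrinks the changes of low genes that are above 0 in both groups. Where a group is at 0, the size of the log2 fold change is set by the pseudocount. It can then exceed the bound that 3 reads give. A fold of means, and a bound with a group at 0 set to 3 reads per library, use untransformed values.

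Named genes came from the called genes that carry a symbol, do not overlap between groups and average 50 or more where higher. They were the 12 largest changes in each direction outside the stroma list, the 6 largest averaging 50 or more in both groups, 6 of the stroma list, and any gene of the pathway lists. The members and lists were chosen with earlier results of these data known. Columns were matched to samples by condition for all 11, but the experiment code in the label of 1 TGFβ/IL-34 sample differs from that in the table. Replicates 1 and 2 of the groups compared share an experiment code, which is where the pairing comes from, although replicate number and code do not coincide in TGFβ/IL-34 and same-numbered deviations correlated at only 0.059 and 0.058. Of 21860 genes, 21676 matched GENCODE vM39 (GRCm39), used for coordinates and lengths. By rule, promoters of the 3 largest named increases were to be shown, but Col2a1 has no entry in the RefSeq table, so it is not shown, and Il1a and Ccl17 were added after their values were seen. The fit was tested on simulated counts with independent noise and no library that stood apart by transcript length. There it called 38 of 100 genes changed 2-fold and 97 of 100 changed 4-fold. Such counts cannot show how far calls here rest on replicate 1 of TGFβ/IL-34/FICZ. The values of 1 listed gene are not reported here. Alternatives were other pseudocounts, quantile scaling, no filter, batch and replicate blocks, array weights, fits of the compared groups only, length centering and leaving out each library. Length centering, the experiment code of the deposited table as a block and all alternatives for the comparison without FICZ were chosen after seeing the data. Intervals and floors cover counting error only.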

Additional observations from a re-analysis of the deposited data

Results flagged for a closer look

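Among the genes named, the effect of Jag1 differed with and without FICZ, by the interaction term of the limma fit, in 6. The difference of the log2 fold changes (with minus without FICZ) was 5.05 for Lipg (adjusted p = 0.013), 4.02 for Nid1 (adjusted p = 0.043), 2.98 for Sod3 (adjusted p = 0.043), 2.72 for Fam20c (adjusted p = 0.043), 1.59 for Ccl17 (adjusted p = 0.043) and 1.14 for Slc2a6 (adjusted p = 0.037). Slc2a6, a lysosomal sugar transporter, fell in both settings, from 6043 and 5097 to 2623, 2698 and 2714 normalized counts with FICZ, and its log2 fold change was −1.05 with FICZ and −2.19 without. Nid1 had a log2 fold change of 3.01 with FICZ and −1.01 without. The interaction uses both TGFβ/IL-34/FICZ samples, of which replicate 1 stood apart from the other libraries. All 6 genes were also called for the effect with FICZ, which is itself a term of the interaction.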

How the results depend on the processing

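Against 264 genes with Jag1 in the presence of FICZ (185 higher, 79 lower), a fit of only the 2 groups gave 0 calls, with 0 higher and 0 lower (1807 genes at an unadjusted p under 0.05), and array weights gave 0, 0 and 0 (913 genes). Leaving out a library gave 54 to 5820 calls (38 to 3092 higher, 16 to 2728 lower), with 219 when replicate 1 of TGFβ/IL-34/FICZ was left out, 5820 when its replicate 2 was, and 69, 54 and 70 without replicates 1, 2 and 3 of Jag1/FICZ. For the interaction (182 genes), no filter gave 74, array weights 8, the experiment code of the labels as a block 44, and leaving out a library 9 to 5488. Without FICZ (864 genes), array weights gave 2627 and leaving out a library 195 to 714. Notch2, with a log2 fold change of 0.64, went to −0.24 when TGFβ/IL-34/FICZ lacked replicate 1 and to 1.51 when it lacked replicate 2. The causes of these shifts were not tested. With no filter on low values 193 genes passed with FICZ, 161 of the 264 among them.

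With replicate number as a block, 187 genes passed, 156 of the 264 among them, and beside the genes for which it is given no call of a gene named in the text was lost. With experiment code as the block 196 passed by the code in the labels and 208 by that in the table, and the former also ended the calls of Ptgis (adjusted p = 0.077), Blnk (adjusted p = 0.057) and Ngp (adjusted p = 0.055). Of 80 called genes that are named or on a list, 35 kept the call without each of the 5 libraries in turn, and none lost it without replicate 2 of TGFβ/IL-34/FICZ. Groups of 2 and 3 and 6 residual degrees of freedom limit what could be detected, and genes near 3 reads cannot be told from 0.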

Other observations

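Among the genes that passed without any of the 5 libraries, several lie outside the lists and were chosen after their values were seen. Itga4, the α4 integrin chain, was at 1609 and 3677 normalized counts in the FICZ samples and at 12785, 11240 and 8845 in the Jag1/FICZ samples (limma, adjusted p = 0.0096), with log2 fold changes of 2.15 with FICZ and 0.46 without. It is not among the genes given above as passing the interaction test. Ets1, a transcription factor of lymphoid and other cells, was at 162 and 92.5 against 726, 750 and 678 (adjusted p = 0.0021), and Nr4a2, an orphan nuclear receptor, at 300 and 458 against 1680, 1975 and 1678 (adjusted p = 0.0077). Ctla4, an inhibitory receptor best known in T cells, was at 0 and 0 against 40.9, 26.1 and 39.3, at least 11.6-fold higher (adjusted p = 0.0077).

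Other genes of the same choice follow. St6gal1, which adds α2,6-linked sialic acid, was at 97.3 and 139 against 905, 478 and 691 (adjusted p = 0.0077), and Chst3, a chondroitin sulfotransferase, at 289 and 325 against 1209, 1370 and 1014 (adjusted p = 0.0018). The histone demethylase Kdm4a was at 4571 and 4547 against 13308, 14180 and 11913, and the forkhead factor Foxn3 at 654 and 952 against 2904, 2554 and 2860. Of the genes that fell, Lgals3bp, a secreted galectin-binding protein, was at 15386 and 14988 against 3714, 2420 and 4595 (adjusted p = 0.0062), and Cd200r1, an inhibitory receptor of myeloid cells, at 707 and 788 against 227, 247 and 295 (adjusted p = 0.0085).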
